A study of Mus musculus with 6 samples.

Results

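The nuclear genes for the subunits of the mitochondrial respiratory chain and ATP synthase were examined, with complex I assembly factors that share their names. The cells were mouse myoblasts held in suspension, with and without knockdown of PRDM2. Members were all genes whose only symbol in the probe annotation begins with Ndufa, Ndufb, Ndufc, Ndufs, Ndufv, Uqcr, Cox4 to Cox8 or Atp5, or is Sdha, Sdhb, Sdhc or Sdhd. The rule used names and no measured value, and it found 90 of the 18193 genes on the array and 179 of 45037 probe sets. Several probe sets were present for 51 of the 90 genes, and the one of highest mean level stands for the gene. Genes that share a probe set with another symbol, and the mitochondrially encoded subunits, are outside the rule.

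Respiratory complexes I and II pass electrons from NADH and from succinate to ubiquinone, complex III passes them on to cytochrome c, and complex IV, cytochrome c oxidase, hands them to oxygen. The proton gradient that complexes I, III and IV build drives ATP synthase, also called complex V. Several small subunits of complex IV exist as a widely expressed form and a form of heart and skeletal muscle: Cox6a2, Cox7a1 and Cox8b are the striated muscle forms in the mouse, and they take the place of Cox6a1, Cox7a2 and Cox8a as muscle matures.

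RNA came from C2C12, a line of mouse myoblasts that enters a reversible arrest without anchorage and forms myotubes when serum is withdrawn. Control cells were a stable pool carrying an shRNA against GFP. Knockdown cells were a stable pool with an shRNA to PRDM2, a nuclear protein of the PR/SET domain family. Both kinds had been held in suspension for 48 hours in methylcellulose medium with 20% fetal calf serum to bring them to G0, so no proliferating or differentiating culture serves as a reference. There were 3 Affymetrix arrays per group, which the labels call biological replicates; whether each had its own transfection is not stated, so p-values measure the spread between these samples. The probe set that stands for Prdm2 read 86.2, 73.6 and 47.1 in the control, in the order of arrays 1 to 3. In the knockdown it read 58.0, 51.5 and 29.0 in the same order, so that the groups overlapped (log2 difference -0.51, SE 0.214, limma adjusted p = 0.313). Another Prdm2 probe set, with a mean intensity of 55.2, differed by -0.75 (limma adjusted p = 0.475 over all probe sets). The dimmest, with a mean of 7.18, differed by 0.10 in the other direction (limma adjusted p = 0.773). Its intensities overlapped between the groups, while its normalized values were higher on all knockdown arrays.

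Some arrays stood apart in control signals. The ratio of 5' to 3' Gapdh control signal, a usual check of RNA integrity, was 0.0992 on control array 3, where the remaining arrays had 0.704 to 1.14. The Dap poly-A spike, a bacterial transcript added before labelling, gave a mean signal of 16.1 on control array 3, 21.2 on knockdown array 3 and 93.1 to 161 elsewhere, and results are therefore also given for the 4 arrays of higher spike signal and for the pair of lower signal, 1 array per group. All 8 myoblast markers were above 16 in both groups, with summed intensities of 1744 to 2229 in the control and 2102 to 2324 in the knockdown. Of the 8, Vcam1 (log2 difference 2.36) and Itga7 (0.63) rose and Myf5 fell by 1.29, while Myod1, Des, Met, Ncam1 and Cdh15 did not pass. Itga7 was at a limma adjusted p of 0.0397, and 1 marker rose in place of 2 whichever array was left out. Myf5 was at 0.0110, and 0 markers fell in the arrays of higher spike signal.

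The muscle isoforms Cox6a2 and Cox8b rose in the knockdown, each by about 1.9 on the log2 scale, and no other member passed the test. Of 90 member genes 2 rose and 0 fell at a limma adjusted p under 0.05, where 2.96% of all genes rose, 2.19% fell and 5.16% passed in either direction. Without adjustment, 6 of 90 members were higher and 5 lower at a limma p under 0.05, beside 1580 higher and 1290 lower of all 18193 genes. By probe sets the count was 3 up, both probe sets of Cox6a2 and the only probe set of Cox8b, and 0 down of 179, where 1.42% of all probe sets rose, 1.01% fell and 2.43% did either. The members did not shift as a group: their median difference was -0.004 against -0.004 for all genes, and 42 of 90 were above 0. Values were transformed as log2(intensity + 16) and quantile normalized, so that the difference of a dim gene is understated.

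**Figure D1:**
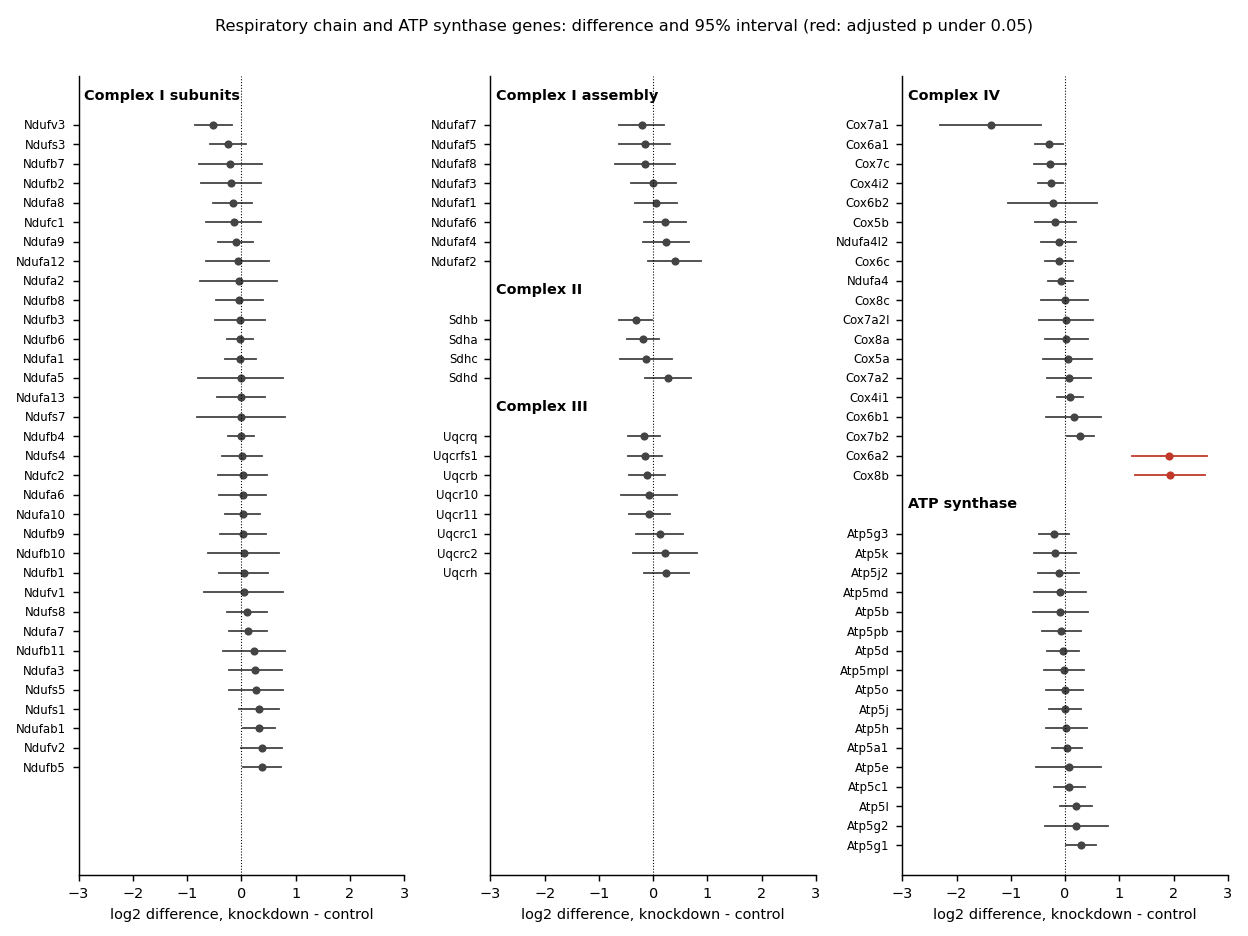
Difference between knockdown and control on the log2(intensity + 16) scale for each of the 90 genes (points) with its 95% interval from limma (lines), grouped by complex and ordered by size. Cox6a2 and Cox8b, in red, lie near 1.9 and passed the test, Cox7a1 lies at -1.37 without passing, and the others lie between -0.51 and 0.40.

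Cox6a2, the muscle form of subunit VIa of cytochrome c oxidase, is read by probe set 1417607_at. Its intensity was 117, 76.7 and 140 in the control and 573, 570 and 352 in the knockdown, again in array order. All knockdown arrays were above all control arrays, with knockdown array 3 the lowest of its group. The means were 111 ± 31.9 and 498 ± 126 (SD, n = 3 each), a rise of 1.92 on the log2 scale (SE 0.292, limma adjusted p = 0.0134). The second probe set, 1457633_x_at, read 10.3, 1.10 and 3.57 in the control and 52.0, 69.9 and 28.7 in the knockdown, and it rose by 1.61 (SE 0.267, limma adjusted p = 0.0380 over all probe sets). Both probe sets thus placed knockdown array 3 lowest among the knockdown arrays. Cox6a2 was higher by 2.38 in the arrays of higher spike signal and by 1.01 in the pair of lower signal. Its limma adjusted p was 0.0570 without control array 1 and 0.0699 and 0.0636 without knockdown arrays 1 and 2, from 0.000762 to 0.0699 over the alternatives, while the difference stayed between 1.59 and 2.40.

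Cox8b, the muscle form of subunit VIII, which is known from brown fat as well, was near background in the control. Its single probe set, 1449218_at, read 12.6, 6.66 and 8.12 in the control against 97.8, 115 and 46.7 in the knockdown. The groups did not overlap, and knockdown array 3 was again the lowest of its group. The means were 9.12 ± 3.09 and 86.4 ± 35.3 (SD, n = 3), a rise of 1.93 on the log2 scale (SE 0.270, limma adjusted p = 0.0100). With an offset of 1 in place of 16 the difference was 3.02, and with 64 it was 0.99 with a limma adjusted p of 0.0564. It was 2.23 in the arrays of higher spike signal and 1.35 in the pair of lower signal. Without knockdown array 1 the limma adjusted p was 0.0552, from 0.000358 to 0.0564 over the alternatives.

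Cox7a1, the muscle form of subunit VIIa, differed in the opposite direction and did not pass. Probe set 1418709_at read 133, 55.0 and 155 in the control and 32.9, 43.3 and 23.2 in the knockdown. The groups did not overlap, but control array 2 lay closer to the knockdown arrays than to the other control arrays. The means were 114 ± 52.5 and 33.1 ± 10.02, and the log2 difference was -1.37 (SE 0.388, 95% interval -2.30 to -0.45, limma adjusted p = 0.122). Without control array 2 it was -1.83 with a limma adjusted p of 0.00842. With all arrays it also passed when only probe sets with a mean intensity of 16 or more were tested (limma adjusted p = 0.0343). It passed as well with an intensity trend together with a robust prior in the variance model (limma adjusted p = 0.0363). Over all alternatives its limma adjusted p ran from 0.00842 to 0.461. The difference was -0.90 in the arrays of higher spike signal and -2.33 in the pair of lower signal.

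The widely expressed counterparts of the muscle isoforms differed far less. Cox6a1 read 2370, 2449 and 1988 in the control and 2104, 2090 and 1618 in the knockdown, a log2 difference of -0.29 (SE 0.108, limma adjusted p = 0.248). Its other probe set differed by -0.30 (limma adjusted p = 0.263 over all probe sets). There the intensities, 979 to 1055 in the control and 800 to 890 in the knockdown, did not overlap. Cox8a read 1125, 1146 and 623 in the control and 926, 990 and 1000 in the knockdown, with control array 3 the lowest of the 6 and a difference of 0.02 (SE 0.168, limma adjusted p = 0.980); without control array 3 it was -0.15. Cox7a2 read 2228, 1630 and 1833 against 2311, 2347 and 1597 (difference 0.07, SE 0.173, limma adjusted p = 0.920). At the probe sets that stand for Cox6a1, Cox8a and Cox7a2 the deposited intensities overlapped between the groups. The normalized values of Cox6a1 were lower on all knockdown arrays. The 95% intervals were -0.55 to -0.03 for Cox6a1, -0.38 to 0.42 for Cox8a and -0.34 to 0.49 for Cox7a2.

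**Figure D2:**
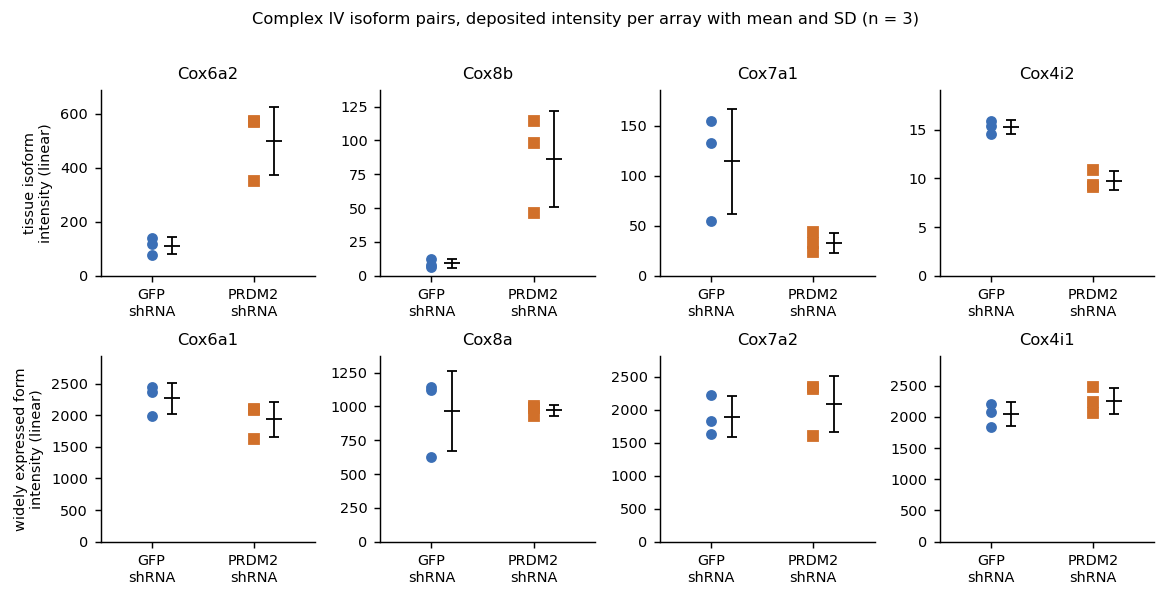
Deposited intensity on a linear axis from 0 for 4 tissue isoforms of complex IV (upper row) and their widely expressed counterparts (lower row), with 1 point per array and the mean and SD beside them (n = 3 per group). Cox6a2 and Cox8b are higher on all knockdown arrays, and Cox7a1 and Cox4i2 are lower on all of them. The values of Cox6a1, Cox8a, Cox7a2 and Cox4i1 overlap between the groups.

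Whether the change of a tissue isoform differed from that of its counterpart was tested on the log2 ratio of each pair within an array, for the 6 pairs in which both genes were measured. The ratio of Cox6a2 to Cox6a1 was higher by 2.21 (SE 0.343) and that of Cox8b to Cox8a by 1.91 (SE 0.410), each on 3 of 3 knockdown arrays. The ratio of Cox7a1 to Cox7a2 differed by -1.45 (SE 0.343), lower on 3 of 3 knockdown arrays. For each of these pairs the exact two-sided permutation p was 0.1, the smallest that 3 arrays against 3 can give, and 0.15 adjusted over the 6 pairs, so that no pair could pass at 0.05.

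The remaining tissue isoforms were dim or differed little. Cox4i2, the lung form of subunit IV, read 14.6 to 15.9 in the control and 9.09 to 10.9 in the knockdown, and differed by -0.27 without passing (SE 0.0951, limma adjusted p = 0.226). Its ratio to Cox4i1 differed by -0.36 (SE 0.1004, exact permutation p = 0.1). Cox7b2, a testis form, had means of 1.24 ± 0.596 and 4.97 ± 1.88, at or near background in both groups, and passed with an offset of 1 alone (limma adjusted p = 0.0355 there and 0.237 with 16). Cox6b2 and Cox8c, known from testis, had means of 41.5 ± 21.2 and 33.1 ± 12.4, and of 30.7 ± 7.62 and 31.6 ± 1.52. Ndufa4l2, a target of hypoxia signalling, had means of 11.4 ± 1.76 and 9.38 ± 3.44 (difference -0.11), and Ndufa4, its relative now counted with complex IV, 866 ± 120 and 840 ± 23.5 (difference -0.08). Their ratios to Cox6b1 and Ndufa4 differed by -0.38 for Cox6b2 and -0.04 for Ndufa4l2, with exact permutation p of 0.5 and 0.9.

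Genes of differentiated muscle were higher in the knockdown as well. In a list of 12 such markers, which other results of these data had already shown to rise, 11 rose and 0 fell, with a median of 3.97. Their summed intensity was 581 to 932 in the control against 10260 to 12490 in the knockdown. Their median relative to the control mean, in normalized values, was 3.69, 4.19 and 4.28 on knockdown arrays 1 to 3. The deposited intensities of Cox6a2 and Cox8b were lowest in that group on array 3, and the order of single arrays was not tested. Ckm, the muscle creatine kinase, was the member of that list that did not pass, at 81.1 ± 33.7 and 51.0 ± 15.8. In these bulk samples, more cells expressing a gene and more RNA per cell cannot be told apart, and the part of differentiated cells in the rise of the 2 isoforms was not tested. Of 7 brown fat markers other than Cox8b 0 passed and their summed intensity was 236 to 351 in the control and 232 to 347 in the knockdown; Ucp1, the defining one, read 0.201 to 2.14 on the 6 arrays and Cidea 0.221 to 1.61. Of 8 markers of cardiac muscle 0 passed, with sums of 83.4 to 117 and 87.4 to 109, and Myh6 and Nppa were below 16 on every array. Of the other marker lists, 1 of 6 adipocyte, 1 of 8 fibroblast, 2 of 8 smooth muscle and 1 of 5 osteoblast genes rose and 0 fell. Over all genes 2.96% rose and 2.19% fell. In the arrays of higher spike signal 0 adipocyte, 0 fibroblast and 0 smooth muscle genes rose, and with an offset of 64 it was 0 adipocyte and 1 smooth muscle genes. The adipocyte count was 0 without control array 1 or 3 or knockdown array 1. The fibroblast count was 0 without control array 3 or any 1 knockdown array and 2 without control array 2. The smooth muscle count was 1 without control array 1 or 3 or knockdown array 1 or 3. Of its genes 1 fell when only probe sets of 16 or more were tested, and 1 with the intensity trend and robust prior. Their summed intensities were higher on every knockdown array than on any control array: 41.7 to 62.5 against 132 to 340 for adipocytes, 234 to 536 against 576 to 746 for fibroblasts, 2400 to 2920 against 3433 to 3885 for smooth muscle and 104 to 145 against 186 to 215 for osteoblasts. Their part in the results was not tested.

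Promoter sequence from RefSeq (GRCm38.p6), 250 bases before to 50 after the start of transcription, was matched by symbol to 74 of the 90 members. Those without a match were Atp5a1, Atp5mpl, Cox4i1, Cox4i2, Cox6a2, Cox6c, Cox8c, Ndufa2, Ndufa4l2, Ndufaf6, Ndufb9, Ndufs1, Sdhc, Uqcrb, Uqcrc2 and Uqcrq. The promoters of Cox8b (chr7:140900397-140900696, minus strand) and of its counterpart Cox8a (chr19:7217567-7217866, minus strand) are shown because Cox8b rose and Cox8a differed by 0.02, and that of Cox7a1 (chr7:30183921-30184220, plus strand) because Cox7a1 differed in the opposite direction. Capitals mark the letters searched on both strands: CCGGAAG for ETS factors, TCAAGGTCA for oestrogen-related receptors, CAGCTG for the E-box of myogenic factors and GGGCGG for Sp1, with the palindromic core of the NRF1 motif and the MEF2 motif.
Cox8b: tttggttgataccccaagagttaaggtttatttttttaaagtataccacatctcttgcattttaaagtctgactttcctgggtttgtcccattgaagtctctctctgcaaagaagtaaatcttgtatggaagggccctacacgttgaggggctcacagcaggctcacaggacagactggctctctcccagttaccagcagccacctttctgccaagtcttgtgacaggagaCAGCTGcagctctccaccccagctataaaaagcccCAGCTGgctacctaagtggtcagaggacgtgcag
Cox8a: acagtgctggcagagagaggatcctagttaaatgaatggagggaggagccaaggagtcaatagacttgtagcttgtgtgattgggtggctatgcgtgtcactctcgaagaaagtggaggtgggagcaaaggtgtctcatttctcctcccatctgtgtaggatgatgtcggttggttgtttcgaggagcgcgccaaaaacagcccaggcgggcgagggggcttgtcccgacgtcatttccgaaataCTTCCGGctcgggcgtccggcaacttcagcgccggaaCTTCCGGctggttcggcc
Cox7a1: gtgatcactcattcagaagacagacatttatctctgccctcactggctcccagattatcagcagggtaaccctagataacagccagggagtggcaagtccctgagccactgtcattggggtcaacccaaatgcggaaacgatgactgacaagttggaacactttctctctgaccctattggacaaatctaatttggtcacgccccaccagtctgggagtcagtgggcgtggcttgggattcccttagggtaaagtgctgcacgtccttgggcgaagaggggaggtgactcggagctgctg

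Cox8b held the E-box letters at 2 places, starting 19 bases before and 16 bases after the first transcribed base, and none of the other letters. In Cox8a the ETS letters occurred at 2 places, both on the opposite strand and so printed as their complement read backwards, and the promoter of Cox7a1 held none of the letters searched. None of the marked letters overlapped. Among the 74 members, 6 (8.11%) held the E-box letters against 18.3% of all 27025 genes with a promoter, 19 (25.7%) held those of NRF1 against 6.997%, 19 (25.7%) those of ETS factors against 9.93%, 35 (47.3%) those of Sp1 against 38.2%, 2 (2.70%) those of oestrogen-related receptors against 0.466%, and 2 (2.70%) those of MEF2 against 4.23%. Of the 4 tissue isoforms with a promoter, Cox8b alone held the E-box letters. A match of letters is a description of the window and not a site.

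Complex I, the NADH dehydrogenase, had no subunit that passed. Its 34 subunit genes had a median log2 difference of 0.01 and ranged from -0.51 to 0.38. Ndufv3, an accessory subunit, had the lowest difference: it read 1664, 1439 and 1563 in the control and 1219, 1239 and 938 in the knockdown, with no overlap between the groups (log2 difference -0.51, SE 0.147, limma adjusted p = 0.126). Ndufb5, another accessory subunit, had the highest, at 633, 467 and 459 against 635, 780 and 701 (0.38, SE 0.150, limma adjusted p = 0.278). Among the 6 core subunits the median was 0.07. Ndufv2 had means of 508 ± 140 and 683 ± 73.8 (difference 0.37), and Ndufs1 207 ± 55.6 and 276 ± 22.8 (0.33). Ndufs3 had means of 544 ± 30.4 and 483 ± 3.08 (-0.25). Ndufv1, which takes electrons from NADH, differed by 0.04. The values of Ndufs1 and Ndufs3 did not overlap between the groups, in opposite directions, and neither passed. Ndufab1, the mitochondrial acyl carrier protein, differed by 0.33 (limma adjusted p = 0.263). The 8 assembly factors, which are not part of the finished complex, had a median of 0.03, from -0.21 for Ndufaf7 to 0.40 for Ndufaf2. Ndufb4 was represented by a probe set at background, with means of 2.49 ± 0.952 and 2.48 ± 1.35.

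Complex II, succinate dehydrogenase, has 4 subunits, all encoded in the nucleus, and none passed. Sdhb, the iron-sulphur subunit, read 924, 731 and 779 in the control and 689, 650 and 668 in the knockdown, without overlap (log2 difference -0.33, SE 0.130, limma adjusted p = 0.286). Sdhd, a membrane anchor, had means of 315 ± 13.1 and 413 ± 88.6 (0.27), and Sdhc, the other anchor, differed by -0.13. The 2 bright probe sets of Sdha, the flavoprotein, went in opposite directions: 1426689_s_at read 513, 520 and 541 in the control and 510, 499 and 462 in the knockdown (-0.19), and 1426688_at read 355, 401 and 302 against 432, 444 and 591 (0.38; limma adjusted p = 0.696 and 0.392 over all probe sets). At neither did the groups overlap, and control array 3 and knockdown array 3 were the extremes of both, so that Sdha had no settled direction.

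Complex III, the cytochrome bc1 complex, had no passing member among 8, a median of -0.07 and a range of -0.17 to 0.24. Uqcrb, a small structural subunit, had means of 3097 ± 464 and 2962 ± 526 (difference -0.12), and Uqcrh, the hinge protein, 1325 ± 250 and 1575 ± 83.2 (0.24). Uqcrq, a small subunit, had 578 ± 60.9 and 543 ± 49.3 (-0.17), and Uqcrfs1, the Rieske iron-sulphur protein, 492 ± 73.9 and 467 ± 63.0 (-0.16). No member of complex III had groups that did not overlap. The 3 probe sets of Uqcr10 differed by -0.08, 0.46 and 0.62, none of them passing.

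Complex IV without its tissue isoforms had 11 genes, 0 passing, and a median of 0.01. Cox4i1, the main form of the regulatory subunit IV, read 2210, 2076 and 1836 in the control and 2231, 2481 and 2061 in the knockdown (difference 0.09, limma adjusted p = 0.793). Cox5a and Cox5b differed by 0.05 and -0.18, Cox6c by -0.11, and Cox7a2l, which joins complexes III and IV, by 0.01. Cox7c read 28.4 to 29.4 in the control and 16.4 to 24.6 in the knockdown, without overlap and without passing (-0.27, limma adjusted p = 0.369). Its probe sets had mean intensities of 25.2 and 7.42, where the other genes of this set ranged from 853 for Ndufa4 to 2149 for Cox4i1. Whether they read the main transcript of Cox7c was not tested.

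ATP synthase had 17 genes, 0 passing, a median of -0.01 and a range of -0.21 to 0.29. Atp5a1 and Atp5b, the alpha and the catalytic beta subunit of the F1 head, differed by 0.03 and -0.09. Subunit c, the proton-carrying ring, is made from 3 genes with the same mature protein, which the probe sets read apart. Atp5g1 read 409, 333 and 300 in the control and 461, 410 and 476 in the knockdown, without overlap (0.29, SE 0.116, limma adjusted p = 0.299). Atp5g3 had means of 1862 ± 186 and 1688 ± 81.8 (-0.21, limma adjusted p = 0.489), and Atp5g2 1287 ± 510 and 1441 ± 161 (0.21), with control array 3 at 702 against 1338 to 1636 on the other arrays. The 95% intervals of the 3 genes were 0.01 to 0.56, -0.48 to 0.07 and -0.37 to 0.78.

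Across all 90 members, 86 lay within 0.5 of 0 on the log2 scale (95.6%, against 89.2% of all genes). The 4 outside were Cox6a2, Cox8b, Cox7a1 and Ndufv3. The normalized values of the groups did not overlap for 7 members that were higher in the knockdown and 8 that were lower, which is 16.7% of members. Of all genes 11.0% were higher and 9.50% lower in this sense, 20.6% together. For 86 of the 88 members that did not pass, the 95% interval lay within 1 of 0, and Cox7a1 and Cox6b2 were the exceptions. A change of 2-fold or more on this scale was thus outside the interval of the 86. Cox7b2, Ndufb4, Cox4i2 and Ndufa4l2, below a mean intensity of 16, are among them, and the offset of 16 shrinks their differences. The offset also shrinks the differences of members not far above 16, such as Cox7c (mean intensity 25.2) and Ndufaf5 (34.0). For all these genes the interval cannot decide on a 2-fold change of intensity. The median half-width of the interval was 0.39. Most members were bright, with 4 of 90 below a mean intensity of 16 against 7640 of 18193 genes. Among genes of 16 or more, 2 of 86 members (2.33%) passed, against 7.91% of all 10553 genes.

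Members varied together between arrays of the same group. The median member stood, relative to the control mean, at 0.09, -0.23 and 0.15 in the control and at 0.004, 0.06 and -0.08 in the knockdown, where the median of all genes ranged from -0.05 to 0.04. Control array 2 was the lowest of the 3 control arrays for 68 of 90 members and knockdown array 3 the lowest of its group for 51. Complexes I, III, IV and V showed this order of the control arrays, with control array 2 at -0.30, -0.26, -0.13 and -0.19. In the arrays of higher spike signal the member median was 0.11 higher in the knockdown, and in the pair of lower signal it differed by -0.26. The median difference of all genes was 0.01 and -0.04 there. Without control array 2 the member median was -0.15 and without control array 3 it was 0.07, so that the sign of a shift this small depended on single arrays.

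**Figure D3:**
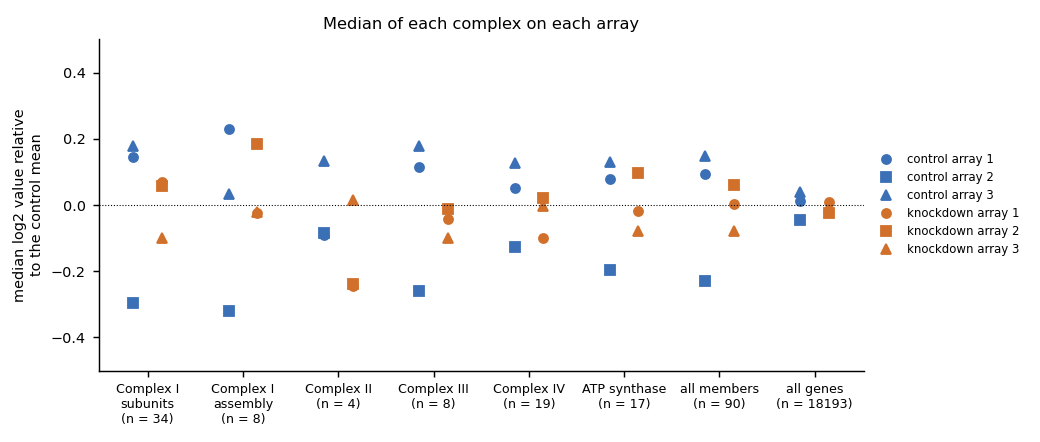
Median log2 value of the genes of each complex on each array, relative to the control mean of each gene, with all members and all genes at the right; blue marks control and orange knockdown arrays, and the shape gives the array number. Knockdown arrays lie within the range of the control arrays for every set except complex II, and control array 2 is the lowest control array for every set except complex II.

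Genes that serve the complexes from outside the rule were followed in lists written with earlier results of these data known. In each list most genes did not pass, beside 5.16% of all genes that passed in either direction. Of 15 measured electron carriers and partner proteins 0 passed, with a median of 0.07; Cycs, cytochrome c, and Cyc1, cytochrome c1 of complex III, differed by -0.02 and 0.03. Gpd2, the glycerol phosphate dehydrogenase that feeds ubiquinone, had means that differed by -0.50 (limma adjusted p = 0.0512), and Higd1a, a hypoxia-induced protein of complex IV, by -0.50 (0.361). Of 17 inner membrane carriers and energy transfer genes 0 passed (median 0.02): Ak4 and Slc25a20 differed by -0.77 and 0.48, and Slc25a4, the ADP/ATP carrier of muscle, by 0.07. Of 45 proteins of the large mitochondrial ribosomal subunit 0 passed (median 0.07), with Mrpl4 and Mrpl17 at 0.43 each. Some of these genes passed in an alternative: Mrpl4 rose by 0.53 without further normalization and by 0.54 with median centring (limma adjusted p = 0.0250 and 0.0317, against 0.0881), and Gpd2 fell by 0.42 with an offset of 64 (0.0394). Ak4, at a limma adjusted p of 0.0763 with all arrays, passed with only probe sets of 16 or more (0.0476) and, at -0.93, without control array 2 (0.0395). Without adjustment, at a limma p under 0.05, 1 carrier or partner was higher and 1 lower, and 1 inner membrane gene was higher and 2 lower. In the same way 3 ribosomal genes were higher and 0 lower. Of all 18193 genes 1580 were higher and 1290 lower at that threshold.

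Ppargc1a, the coactivator PGC-1 alpha that drives mitochondrial biogenesis, fell in the knockdown. It read 37.7, 27.6 and 29.0 in the control and 12.2, 8.00 and 3.25 in the knockdown, without overlap, a log2 difference of -1.01 (SE 0.179, limma adjusted p = 0.0249). Its second probe set fell by 0.97 (limma adjusted p = 0.0244 over all probe sets), and the other 3 differed by -0.48, -0.48 and -0.41 without passing. The limma adjusted p was 0.0934 and 0.0737 without control arrays 1 and 3, 0.0890 and 0.0699 without knockdown arrays 2 and 3, and 0.149 in the arrays of higher spike signal, from 0.00412 to 0.149 over the alternatives. With an offset of 64 the difference was -0.42 and with 1 it was -2.02. Nrip1, a corepressor of oxidative metabolism genes, rose by 0.71 (SE 0.1002, limma adjusted p = 0.0105), from 118 ± 22.1 to 215 ± 4.34. Its other 5 probe sets differed by -0.11 to 0.10 without passing, with the mean of all its probe sets the difference was 0.12, and without knockdown array 1 its limma adjusted p was 0.0538, from 0.00857 to 0.883 over the alternatives. The other 24 of 26 biogenesis regulators did not pass, Tfam (0.18), Nrf1 (-0.29), Gabpa (0.40) and Esrra (-0.28) among them.

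Of 24 measured genes of the citrate cycle and of pyruvate entry 3 rose and 0 fell, beside 2.96% and 2.19% of all genes. The count that rose was 0 in the arrays of higher spike signal, and 1 with an offset of 1, without control array 2 or 3 and without knockdown array 2 or 3. The count that fell was 1 with only probe sets of 16 or more. It was also 1 with the intensity trend and robust prior and with the mean of each gene's probe sets. Pcx, pyruvate carboxylase, read 16.1, 18.8 and 14.7 in the control and 38.5, 40.0 and 35.4 in the knockdown (0.72, SE 0.0875, limma adjusted p = 0.00585). In the arrays of higher spike signal it was 0.75 higher with a limma adjusted p of 0.0560, the highest over the alternatives, where the lowest was 0.00296. Pdp1, the phosphatase that activates pyruvate dehydrogenase, rose by 0.76 from 57.0 ± 8.20 to 115 ± 20.7, and Suclg2, a subunit of succinate-CoA ligase, by 0.57 from 155 ± 26.8 to 254 ± 4.91. Cs, citrate synthase, differed by -0.16. Of 34 assembly factors outside the rule 1 rose and 0 fell, beside 2.96% and 2.19% of all genes. The 1 that rose was Sdhaf1, which serves complex II, by 0.91 from 42.2 ± 8.48 to 98.0 ± 17.9. The adjusted p of Pdp1, Suclg2 and Sdhaf1 lay between 0.0211 and 0.0340 with all arrays. It was over 0.05 for Pdp1 without each array except knockdown array 1, for Suclg2 without each array except control array 1, and for Sdhaf1 without each array except knockdown array 3, with highest limma adjusted p of 0.230, 0.211 and 0.138 over the alternatives.

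**Figure D4:**
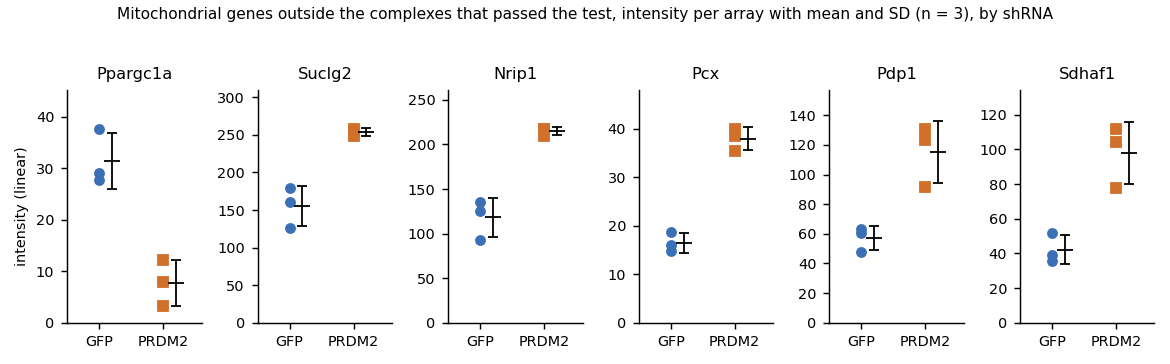
Deposited intensity on linear axes from 0 for the 6 genes of the mitochondrial lists that passed, with 1 point per array and the mean and SD beside them (n = 3 per group), control (GFP) at the left and knockdown (PRDM2) at the right of each panel. Ppargc1a is lower on all knockdown arrays and Suclg2, Nrip1, Pcx, Pdp1 and Sdhaf1 are higher on all of them.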

How the data were processed

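Each of 6 Affymetrix mouse arrays (3 control, 3 knockdown) was hybridised with biotin-labelled cRNA made from 8 µg of total RNA per the labels' protocols. The deposited values are 1 linear intensity per probe set and array; GCOS and PLIER are named, without versions, in the submitters' processing notes, and background correction and normalization between arrays are not given in the sources used here. In R 4.3.3 with limma 3.58.1, 64 control probe sets were left out and log2(intensity + 16) was quantile normalized. The group difference was fitted with lmFit and eBayes, and p-values were adjusted by Benjamini-Hochberg over 18193 genes or, for single probe sets, over 45037, with a threshold of 0.05; the fit was tested on simulated data. Of several probe sets, that of highest mean log2 value stood for its gene. Symbols came from the platform annotation, and all 90 members matched the GRCm38.p6 gene table by Entrez identifier. Intensities with ± are mean and SD of deposited values; differences are of normalized values.

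Members, lists and alternatives were chosen with earlier results of these data known. Genes named by rule were members that passed, tissue isoforms with their counterparts, the brightest and the most different gene of each complex, members with disagreeing probe sets, Prdm2, and up to 4 passing or the 2 most different genes of each list; others were named after their values were seen. The number of arrays limits the precision. Cox7b was not analysed here. Replicate numbers are shared between the groups, but the deviations of same-numbered arrays correlated at 0.36, 0.10 and 0.01, so they were not taken as pairs. Alternatives covered normalization, offset, filter, variance model, probe set choice, blocks and leaving out arrays.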

Additional observations from a re-analysis of the deposited data

How the results depend on the processing

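Under 16 alternatives, the rises of Cox6a2 and Cox8b kept their sign, and so did the lower value of Cox7a1; the median difference of all members stayed between -0.15 and 0.11. The count of members that rose, 2 with all arrays, was 1 with an offset of 64 (Cox6a2) and 1 with the replicate block (Cox8b), where Cox6a2 had a limma adjusted p of 0.0512; it was 0 to 2 when single arrays were left out. The count that fell was 1 (Cox7a1) with only probe sets of intensity 16 or more. It was 1 with the intensity trend and robust prior, and 0 to 1 when single arrays were left out. Of member probe sets, 0 rose with an offset of 64, 0 with the replicate block, 1 in the higher spike arrays only, and 0 to 2 when single arrays were left out, where 0 to 1 fell. With the replicate block 712 genes passed, against 938 without it, and in the lists 0 assembly factors, 1 citrate cycle gene, 1 myoblast marker, 0 adipocyte and 0 fibroblast markers rose; same-numbered arrays share only a number. Of all genes 938 passed with all arrays, 358 with the higher spike arrays only, which leaves 4 arrays, and 444 to 815 without single arrays: 544 without control array 1, and 444, 559 and 558 without knockdown arrays 1, 2 and 3. The cause of the other changes was not tested.

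The difference of the ratio of Ndufa4l2 to Ndufa4 turned to 0.0334 with an offset of 64 and 0.0127 in the higher spike arrays only, and ran from -0.105 to 0.0413 without single arrays. Cox8a turned to -0.20 in the higher spike arrays only. Without single arrays the difference ran from -0.15 to 0.12 for Cox8a, -0.0621 to 0.212 for Cox7a2, -0.0857 to 0.294 for Cox6b1, -0.54 to 0.11 for Cox6b2, -0.178 to 0.00139 for Ndufa4l2 and -0.204 to 0.00213 for Uqcrb. None of these passed in any alternative.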

Other observations

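Outside the rule, 10 probe sets carried a member's symbol together with that of another gene, and none passed (limma adjusted p of 0.458 to 0.996). The 2 probe sets named for Ndufb4 with its copies Ndufb4b and Ndufb4c had means of 673 ± 254 and 716 ± 150 and of 508 ± 162 and 542 ± 61.4, and differed by 0.07 and 0.05, whereas the probe set that names Ndufb4 alone was at background. The probe set named for Ndufs6 and Ndufs6b differed by 0.01, the brighter of the pair for Ndufa11 and Ndufa11b by -0.20, and that for Ndufs5 and its pseudogene by 0.09, against 0.27 for the probe set of Ndufs5 alone. Transcripts of these copies cannot be told apart on this array.

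The dimmest of 4 probe sets of Ndufa12, an accessory subunit of complex I, read 55.9, 232 and 32.7 in the control and 40.8, 39.6 and 27.0 in the knockdown. Control array 2 stood above the other 5 arrays there, while it was the lowest control array at the brightest probe set of the gene, with 568 against 1097 and 672.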
